A study of Homo sapiens with 21 samples.

Results

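PK25 is a parkin-expressing stable clone of U-87MG, a human glioblastoma line long established in culture. It was compared here with V22, a clone of the same line that carries the empty vector, across 18374 genes. Of the 21 arrays in the study, 6 make up the comparison: sets 1 to 3 of PK25 and sets 4 to 6 of V22, chosen by their titles as arrays of one array series. The other arrays belong to the parkin clones PK7 and PK19 (3 arrays each, in the same series), and to the vector clones V8, V17 and V22 in another series (3 arrays each, V22 there as sets 1 to 3). The series were read from the prefixes of the scanner file names. All clones were plated at one density and grown for a day before RNA was extracted. PK25 and V22 are each 1 clone, and no label says that a clone's arrays came from separate cultures. Every p-value below therefore measures the spread between arrays of 2 clones, not between clones with and without parkin. Parkin's own transcript is not analysed here.

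Parkin is an E3 ubiquitin ligase of the RING-between-RING type. The kinase PINK1 activates it on damaged mitochondria, where it tags outer membrane proteins with ubiquitin so that autophagy can remove the organelle. It has also been studied as a growth suppressor in glioma, where cyclin D1 and the VEGF receptor KDR have been examined downstream of it. A stable clone grows from 1 cell, so it carries the expression state of that cell together with whatever the introduced gene changes.

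Of the glioblastoma and astroglial markers, a few were bright in both clones and most were dim. Vimentin (VIM) lay at 12.80 ± 0.03 in PK25 and 12.71 ± 0.03 in V22 (log2 RMA intensity, SD, n = 3 arrays), and CD44 at 11.69 and 11.63. The astrocyte genes GFAP (6.54 and 6.31), S100B (4.10 and 4.19) and AQP4 (3.79 and 3.83) were dim in both clones. Of 14 glioblastoma and astroglial markers, 3 to 5 lay above 8 on each array. Of the neuron, oligodendrocyte, blood, endothelium and epithelium lists, no array had more than 1 marker above 8.

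The arrays were not equally close to each other. Over all genes, each by 1 probe set, V22 arrays correlated with each other at 0.9948 to 0.9973 and PK25 arrays at 0.9855 to 0.9946. Arrays of the 2 clones correlated with each other at 0.9835 to 0.9941. PK25 set 3 stood apart from sets 1 and 2. Its median log2 intensity over all probe sets was 6.37 against 6.24 and 6.26, and its median over small nucleolar RNAs was 5.24 against 5.81 and 6.00. PK25 set 2 and V22 set 5 deviated from their clones in a shared direction. The cystine transporter SLC7A11, for example, lay at 10.10, 7.77 and 9.97 on PK25 sets 1 to 3 and at 9.63, 6.90 and 9.61 on V22 sets 4 to 6, with the low arrays being set 2 and set 5.

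Few genes separated the clones beyond this spread. With limma and Benjamini-Hochberg adjustment over 26947 probe sets, 46 genes had an adjusted p under 0.05, of which 16 were higher in PK25 (0.0871% of genes) and 30 lower (0.163%). At 2-fold or more, 10 of them were higher (0.0544%) and 16 lower (0.0871%). The call rests on these 6 arrays: leaving out 1 array gave 4, 73 or 25 genes without PK25 set 1, 2 or 3, and 3, 5 or 4 genes without V22 set 4, 5 or 6. IL13RA2, LRRC17 and NCAM2 were called in each of these 6 fits, 9 of the 46 genes in none, and all 46 kept their sign in each. Leaving out both PK25 set 2 and V22 set 5, a choice made after seeing the data, left 2 genes. Without adjustment, 1940 genes (10.6%) had a p under 0.05, and all PK25 arrays lay above all V22 arrays for 8.63% of genes and below them for 9.57%. The median difference over all genes was 0.02, and the central 95% of genes lay between -0.43 and 0.35 on the log2 scale.

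**Figure D1:**
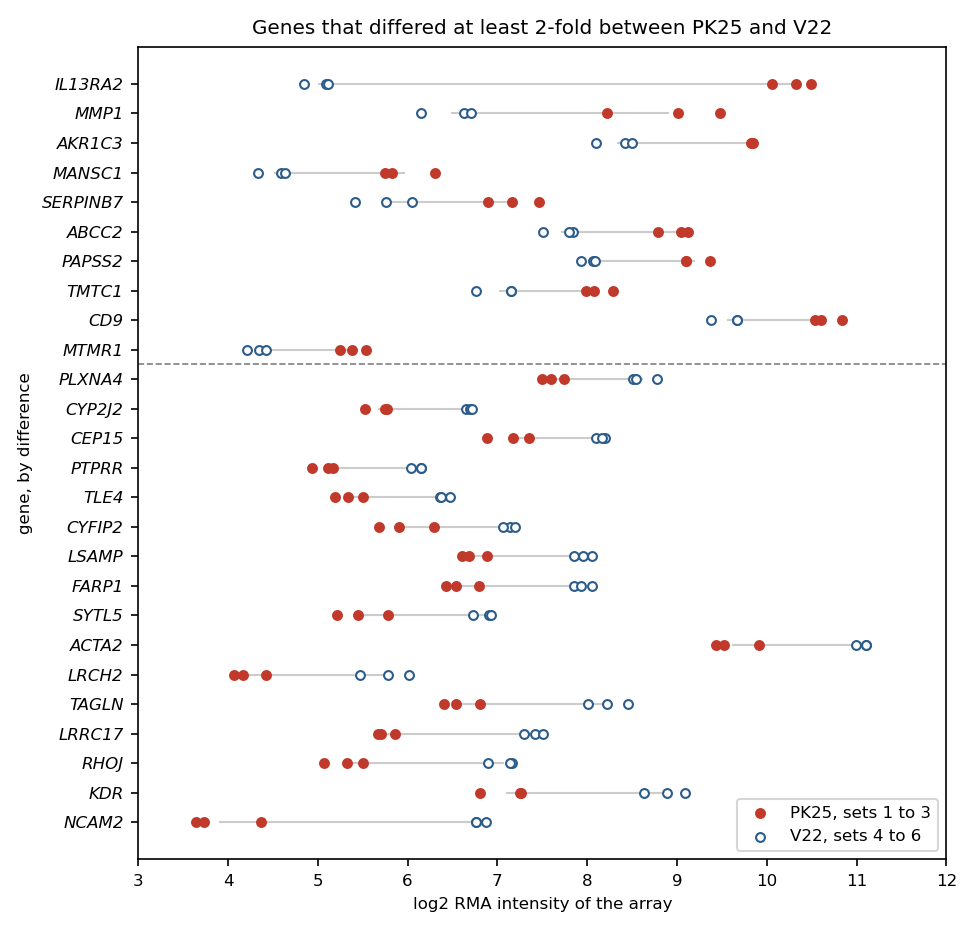
Log2 RMA intensity (x axis) of the 26 genes called at 2-fold or more, ordered by difference, with a filled point for each PK25 array, an open point for each V22 array and a line between the clone means. Genes above the dashed line were higher in PK25 and those below it lower, and the 2 clones' arrays do not overlap for any of them.

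Among the genes higher in PK25, the largest measured difference was in IL13RA2, which encodes a cell surface receptor chain that binds interleukin 13 and is known as a glioblastoma antigen. It lay at 10.49, 10.06 and 10.32 on the PK25 arrays and at 5.10, 5.11 and 4.85 on the V22 arrays. The V22 values are near the bottom of the array's range, while those of PK25 are high. The measured difference was 5.27 ± 0.14 (SE), or 38.7-fold (adjusted p = 8.62e-06, limma). That fold is a ratio of RMA intensities and depends on how the dim V22 signal is treated: with an offset of 32 added to each intensity the difference was 4.32. Of 34 interleukin receptor chains measured, it alone was called. The matrix metalloproteinase MMP1, a collagenase, lay at 9.48, 8.22 and 9.01 in PK25 and 6.63, 6.15 and 6.71 in V22, a rise of 2.41 ± 0.30 (adjusted p = 0.0383). Its PK25 arrays spread over more than a doubling of intensity, and its call was kept in 1 of the 6 fits that left out an array, with an adjusted p of up to 0.209 in the others.

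Drug and steroid metabolism was represented by AKR1C3, an aldo-keto reductase of steroids and prostaglandins, and by ABCC2, an ATP-driven exporter of conjugated compounds. AKR1C3 lay at 9.83, 9.84 and 9.84 in PK25 against 8.42, 8.10 and 8.50 in V22 (2.82-fold, adjusted p = 0.0101), and ABCC2 at 9.04, 9.13 and 8.79 against 7.84, 7.51 and 7.80 (2.41-fold, adjusted p = 0.0194). For both genes the lowest V22 array was set 5. The neighbouring reductase genes AKR1C1 and AKR1C2 were 0.79 and 1.05 higher on the log2 scale without passing the test (adjusted p = 0.0765 and 0.141). These reductases are near-identical in sequence, so their probe sets may share signal. PAPSS2, which makes the sulfate donor for sulfotransferases, rose 2.25-fold (adjusted p = 0.0156). AIFM2, an oxidoreductase known for protecting membranes from lipid peroxidation, rose 1.84-fold (adjusted p = 0.0318). AKR1C3 kept its call in 4 of the 6 fits without 1 array, ABCC2 and PAPSS2 in 2 and AIFM2 in 1.

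The laminin chain gene LAMA5 rose 1.95-fold and LAMA2 1.65-fold (adjusted p = 0.0383 and 0.043), the only called members of 39 integrins and laminins. FERMT1, the integrin activator kindlin-1, rose 1.78-fold, from 4.74 ± 0.10 to 5.58 ± 0.02. CD9, a tetraspanin of the cell surface, rose 2.12-fold, from 9.57 ± 0.17 to 10.66 ± 0.16. The serpin SERPINB7 (2.7-fold), MANSC1 (2.71-fold), the endoplasmic reticulum O-mannosyltransferase TMTC1 (2.13-fold) and the phosphoinositide phosphatase MTMR1 (2.09-fold) completed the rises of at least 2-fold. V22 averaged 4.33 in MTMR1 and 4.52 in MANSC1, dimmer than its 5.02 in IL13RA2. The folds of MTMR1, MANSC1 and FERMT1 therefore also depend on how dim signal is treated. IFITM10 and EPB41L1, an adaptor between membrane and cytoskeleton, rose 1.94-fold and 1.67-fold. None of these calls was kept in more than 2 of the 6 fits without 1 array.

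Among the genes lower in PK25, the largest measured difference was in NCAM2, a neural cell adhesion molecule of the immunoglobulin family. It lay at 3.64, 3.73 and 4.37 in PK25 and at 6.76, 6.76 and 6.87 in V22, a fall of 2.89 on the log2 scale (7.39-fold, adjusted p = 0.00246). The PK25 arrays were near the bottom of the scale, where intensities are compressed, and with the offset of 32 the difference was -1.60. LSAMP, an adhesion molecule of the IgLON group, lay at 6.61, 6.69 and 6.88 against 8.05, 7.85 and 7.96, a 2.34-fold fall (adjusted p = 0.0148). NCAM2 and LSAMP were the only called members of 27 neural cell adhesion molecules, whose median difference was 0.07 (-0.04 without PK25 set 3). PLXNA4, a plexin receptor for semaphorin guidance cues, fell 2-fold and was the only called member of 30 semaphorins and plexins. CHL1, a relative of L1CAM, was lower on every PK25 array without passing the test (difference -1.17, adjusted p = 0.0992).

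KDR, the principal signalling receptor for VEGF, lay at 7.26, 7.25 and 6.80 in PK25 and 9.09, 8.63 and 8.89 in V22. All PK25 arrays were below all V22 arrays, by 1.77 ± 0.17 on average (3.4-fold, adjusted p = 0.0156). RHOJ, a small GTPase known from endothelial cells, lay at 5.51, 5.07 and 5.33 against 7.17, 6.90 and 7.14 (3.4-fold lower, adjusted p = 0.00813). Of the 11 endothelium markers only KDR was called, and PECAM1 (4.85 and 4.58), CDH5 (5.44 and 5.26) and VWF (4.69 and 4.56) were dim in both clones. KDR was likewise the only called gene among 24 VEGF ligands, receptors and angiogenesis genes. The co-receptor NRP2 was -0.55 and NRP1 0.32 different in log2 terms, neither passing the test (adjusted p = 0.0722 and 0.296). The call of KDR was kept in 2 and that of RHOJ in 4 of the 6 fits without 1 array.

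LRRC17, a secreted leucine-rich repeat protein, lay at 5.67, 5.86 and 5.70 in PK25 and 7.41, 7.30 and 7.51 in V22. Both clones were tight, and the 3.17-fold fall had an adjusted p of 0.00246. MMP2, the gelatinase, was among the brightest called genes, at 11.33, 11.47 and 11.26 in PK25 against 12.10, 12.07 and 12.12 in V22 (1.67-fold lower, adjusted p = 0.0399). MMP1 and MMP2 were the only called genes of 52 metalloproteinases and inhibitors, and they moved in opposite directions. The heparan sulfate proteoglycan SDC3 fell 1.73-fold.

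Most contractile genes of smooth muscle and myofibroblasts had lower values in PK25, and 2 were called. These genes are classical targets of serum response factor, which binds the CArG box. TAGLN, the actin-binding protein transgelin, lay at 6.53, 6.40 and 6.80 in PK25 and 8.22, 8.45 and 8.01 in V22 (3.13-fold lower, adjusted p = 0.015). ACTA2, smooth muscle alpha-actin, lay at 9.53, 9.91 and 9.44 against 11.10, 11.10 and 11.00 (2.71-fold lower, adjusted p = 0.0156). These were the called members of 16 smooth muscle contractile genes. Of the 16, 12 were lower, 9 with all PK25 arrays below all V22 arrays (9.57% of all genes), and the list median was -0.32 beside 0.02 over all genes. That median was -0.07 in PK7 and -0.70 in PK19, and -0.27 in V8, which carries no parkin, against V22 sets 1 to 3. ACTG2, smooth muscle gamma-actin, lay at 6.36, 7.22 and 6.25 and 7.63, 8.27 and 7.67 without passing the test (difference -1.25, adjusted p = 0.174), and set 2 and set 5 were the highest arrays of their clones. CALD1, which binds actin and calmodulin, differed by -0.57 (adjusted p = 0.139). Differences in CNN2, SMTN and MYLK were -0.35, -0.34 and -0.23, with adjusted p of 0.25, 0.297 and 0.476. MYL9 and the muscle-restricted DES, MYH11 and MYOCD differed by -0.05, 0.07, 0.18 and 0.26. The calls of TAGLN and ACTA2 were each kept in 2 of the 6 fits without 1 array.

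Of these genes, 4 hold a CArG box in the 250 bases before their start site in RefSeq (GRCh38.p14), and the stretches are shown as the boxes found among the listed genes, with each box in capitals and read 5′ to 3′ on the gene's strand. ACTG2, an actin of visceral smooth muscle, has 2 boxes (chr2:73892858-73892984, plus strand), ending 100 and 63 bases before the start. MYLK, the myosin light chain kinase, has 1 (chr3:123620593-123620682, minus strand). CNN2, a calponin, has 1 (chr19:1026479-1026568, plus strand), and SMTN, smoothelin, has 1 (chr22:31084912-31084995, plus strand).
ACTG2: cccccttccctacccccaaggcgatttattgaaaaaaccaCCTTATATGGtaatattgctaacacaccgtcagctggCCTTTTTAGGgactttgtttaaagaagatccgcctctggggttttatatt
MYLK: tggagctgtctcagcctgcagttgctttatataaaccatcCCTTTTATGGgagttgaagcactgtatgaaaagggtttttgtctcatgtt
CNN2: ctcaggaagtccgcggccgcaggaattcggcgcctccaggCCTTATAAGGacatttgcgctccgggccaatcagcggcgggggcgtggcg
SMTN: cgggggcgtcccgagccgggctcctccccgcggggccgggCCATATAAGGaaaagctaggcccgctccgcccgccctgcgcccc
The box was searched on both strands as its usual consensus, with only A or T between CC and GG and no mismatch allowed. It occurred in 1.16% of 35116 promoters of that length and in 4 of the 11 listed genes found in the table. The ACTA2 window held no exact match, TAGLN is not among those 11, and none of the genes with a box was called. Variants of the box were not searched, so a window without a match may still hold one. A match is a description of the sequence only.

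The other called falls were spread over unrelated functions. TLE4, a Groucho-type transcriptional co-repressor, lay at 5.19, 5.50 and 5.34 in PK25 and 6.36, 6.48 and 6.38 in V22 (2.09-fold). LRCH2 fell 2.9-fold from 5.76 ± 0.28 to 4.22 ± 0.19, a dim level at which the fold depends on how low signal is treated. SYTL5, a synaptotagmin-like partner of RAB27, fell 2.6-fold, and FARP1, a guanine nucleotide exchange factor linked to plexins, 2.56-fold. CYFIP2, a subunit of the actin-regulating WAVE complex, fell 2.25-fold. The receptor phosphatase PTPRR, the centriolar protein gene CEP15 and the arachidonate epoxygenase CYP2J2 fell 2.05-fold, 2.02-fold and 2.01-fold. Falls of under 2-fold were called in DGKI, ZFPM2, RTN1, MSRB3, SESN3, UBE2K, TMEM98, DENND11, LY6E, RENBP, KIF5C and the histone gene H4C13. Within this set, the ubiquitin-conjugating enzyme UBE2K (9.09, 8.95 and 8.83 in PK25, 9.80, 9.72 and 9.76 in V22) was the only called enzyme of the ubiquitin pathway named here. Its call was kept in none of the 6 fits without 1 array (adjusted p up to 0.231, limma). Those of KIF5C, RENBP, LY6E, TMEM98, SESN3 and MSRB3 were also kept in none. The other calls of this paragraph were kept in 1 or 2 of the 6 fits.

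V8, a vector clone without parkin, differed from V22 in many of the same genes. For 30 of the 46 called genes, 11 higher and 19 lower, the V8 arrays lay outside the range of V22 sets 1 to 3 on the side where PK25 lay from V22 sets 4 to 6. For 2 they lay on the other side and for 14 they overlapped. Over all genes the V8 arrays lay apart to either side in 27.4%, against 32 of the 46. Both comparisons run against the same clone, though on different arrays. The third vector clone, V17, had a mean within 0.39 of V22 sets 1 to 3 for every called gene.

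Levels of V8 and PK25 set side by side here come from different array series. IL13RA2 was at 11.13, 11.04 and 11.04 on the V8 arrays, above PK25, and at 5.24 on average in V17. MMP1 was at 8.63, 9.75 and 8.65 in V8, with the second array above the range of PK25 and the others inside it. TAGLN was at 6.33, 6.41 and 6.71 and RHOJ at 5.27, 4.98 and 5.27, both as low as in PK25. KDR, at 7.92, 8.07 and 7.97, lay between the levels of PK25 and V22. LRRC17 was at 7.65, 7.54 and 7.66 in V8, just below the 7.73, 7.91 and 7.79 of V22 sets 1 to 3, a difference of -0.19 on the log2 scale beside -1.66 in PK25 against V22 sets 4 to 6. NCAM2 was at 7.80, 7.28 and 7.56 in V8, above the 6.76, 6.37 and 7.25 of V22 sets 1 to 3. When V8 was moved to the series of PK25 by the difference between both V22 groups and used in place of V22, an alternative added after the data were seen, 16 of the 46 genes kept their sign with an adjusted p under 0.05. These included NCAM2 (-3.64), LRRC17 (-1.47), AKR1C3 (1.22), TLE4 (-1.26) and ACTA2 (-0.75). IL13RA2 had a difference of -0.58 in that comparison (adjusted p = 0.068) and KDR one of -0.71 (adjusted p = 0.0466).

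**Figure D2:**
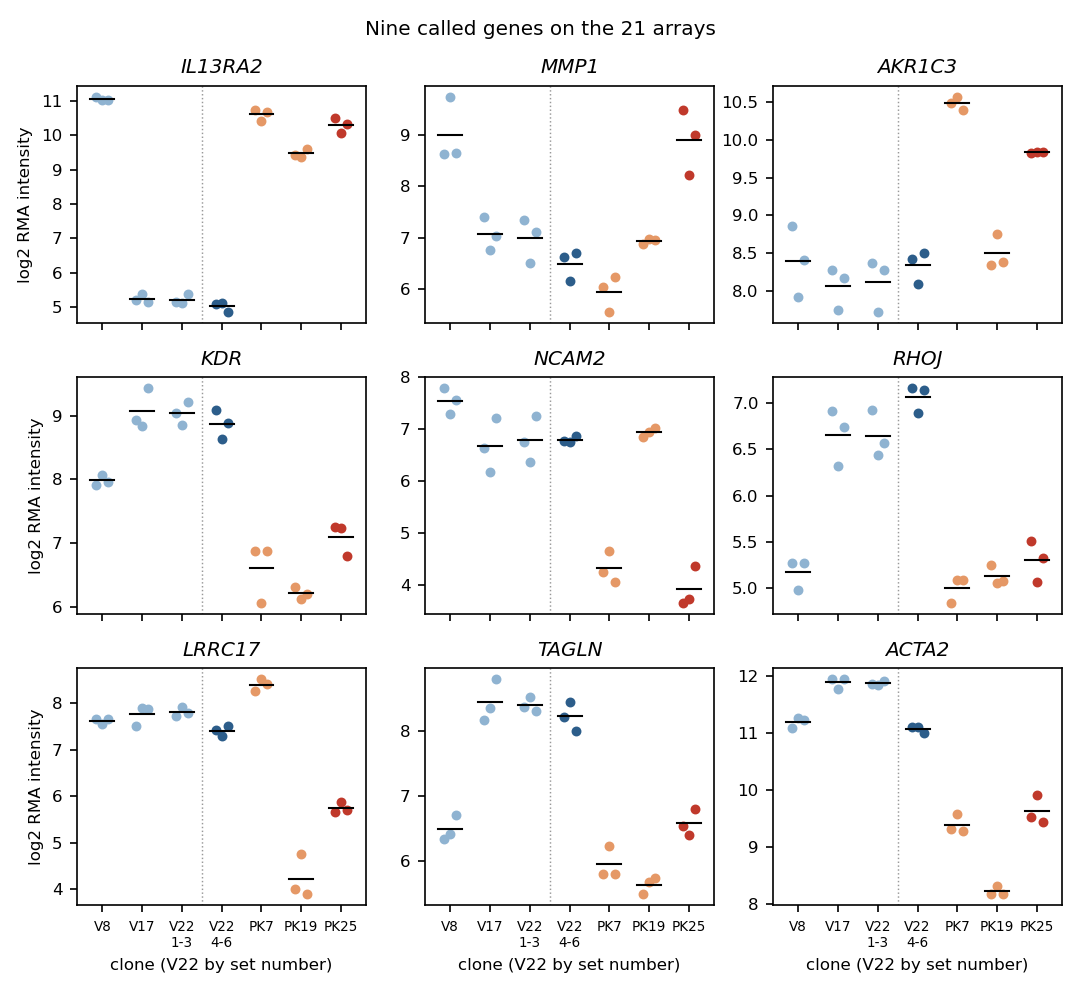
Log2 RMA intensity (y axis) of 9 called genes on each of the 21 arrays, by clone (x axis), with a bar at the mean of 3 arrays and a dotted line between the 2 array series. IL13RA2 is high in V8 and in all 3 parkin clones, TAGLN and RHOJ are low in V8 and in all 3 parkin clones, and LRRC17 is low in PK19 and PK25 only.

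The other parkin clones were measured on the same array series, and their differences are set beside those of PK25 with the reminder that all 3 use the same V22 arrays. IL13RA2 averaged 10.61 in PK7 and 9.47 in PK19, KDR 6.61 and 6.22, RHOJ 5.01 and 5.13, TAGLN 5.94 and 5.63, and ACTA2 9.39 and 8.22. For each of these the level in both clones was on the same side of V22 as in PK25. LRRC17 averaged 8.39 in PK7, above V22, and 4.22 in PK19, below PK25. NCAM2 averaged 4.31 in PK7 and 6.94 in PK19, the latter near V22.

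PK25 was then compared directly with the mean of PK7 and PK19 on their 9 arrays. Over all genes 1.98% differed at an adjusted p under 0.05 and at least 2-fold (limma), and 15 of the 46 called genes did. MMP2 was at 12.51, 12.95 and 12.58 in PK7 and 12.53, 12.59 and 12.47 in PK19, above V22, whereas every PK25 array was below V22. TLE4 (7.04, 7.53 and 7.19 and 7.35, 7.49 and 7.27) and KIF5C (8.02, 7.61 and 8.08 and 7.84, 8.24 and 8.01) were arranged the same way around V22. MMP1 was at 6.05, 5.56 and 6.24 in PK7 and 6.88, 6.97 and 6.95 in PK19, so that of the parkin clones PK25 had the highest level. AKR1C3 was at 10.48, 10.57 and 10.40 in PK7, above PK25, and at 8.35, 8.76 and 8.39 in PK19, close to V22.

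The genes that earlier work on parkin in glioma cells concerns were not called apart from KDR. CCND1, cyclin D1, lay at 10.99, 11.23 and 10.89 in PK25 and 11.57, 11.50 and 11.57 in V22. Every PK25 array was lower, but the difference of -0.51 ± 0.11 did not pass the adjusted threshold (adjusted p = 0.167). VEGFA, the ligand of KDR, differed by -0.26 ± 0.11 (adjusted p = 0.513). CCNE1, cyclin E1, differed by -0.10 ± 0.10 and FBXW7, the substrate adaptor that targets cyclin E for degradation, by -0.15 ± 0.19 (adjusted p = 0.774 and 0.824). Of 32 parkin-PINK1 mitophagy genes, 16 were higher and 16 lower and none was called. OPTN, an autophagy receptor, and DNM1L, the fission GTPase, had the smallest p among them, with differences of 0.60 and 0.41 (adjusted p = 0.26 and 0.237). OPTN lies on chromosome 10, where the running median around it was 0.23. PINK1 itself lay at 8.14 ± 0.12 in PK25 and 8.12 ± 0.15 in V22. Of 13 RING-between-RING ligase genes measured none was called, and RNF144A was lower on every array (-0.67, adjusted p = 0.184).

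Most genes of chromosome replication were lower in PK25, by small amounts that did not pass the test. Of 38 DNA replication genes 36 were lower in PK25 and 19 had all PK25 arrays below all V22 arrays, beside 9.57% of all genes, while none was called. The median difference was -0.17. It was -0.36 in PK7 and -0.27 in PK19, and -0.01 in V8 against V22 sets 1 to 3. CDC45, a part of the replicative helicase, lay at 8.48, 8.52 and 8.35 against 8.93, 8.93 and 9.06 (adjusted p = 0.115). MCM5, another helicase subunit, differed by -0.51, ORC6, of the origin recognition complex, by -0.56, and GINS2 by -0.54. ORC6 lies in a run of lower genes on chromosome 16 (described below), and CDC45 and MCM5 lie on chromosome 22 outside the run there, where the running medians around them were -0.22 and -0.23. In all, 3 of the 38 replication genes and none of the 55 histone genes lie in a run. Of 20 measured genes for Fanconi and homologous recombination repair, 19 were lower (median -0.19), with BRIP1 at -0.44 and XRCC2 at -0.44, and none was called. The median of these repair genes was -0.34 in PK7 and -0.22 in PK19, and -0.07 in V8 against V22 sets 1 to 3. The 55 replication-dependent histones, whose transcripts accumulate in S phase, had a median of -0.23 with 33 genes apart and lower. In V8, which carries no parkin, their median against V22 sets 1 to 3 was -0.47, and in PK7 and PK19 it was -0.55 and -0.35. H4C13 was the 1 called, at 9.12, 9.27 and 9.12 in PK25 and 9.96, 10.04 and 9.92 in V22 (1.74-fold lower, adjusted p = 0.0304). Histone genes are near-identical copies, so their probe sets may share signal. The 37 genes of G2 and mitosis had a median of -0.03 (0.04 without PK25 set 3 and -0.12 without set 2), with 1 apart and lower and 2 apart and higher.

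Programs with large differences in the other parkin clones were small in PK25. The median of 28 hypoxia-inducible factor targets was 0.07 in PK25, 0.88 in PK7 and 0.92 in PK19, each against the same V22 arrays. That of 24 genes for glycolysis and lactate transport was 0.10, 0.40 and 0.49. In PK25 no member of either list was called, and leaving out 1 array moved the median of the hypoxia list to between 0.0034 (without PK25 set 2) and 0.10 (without PK25 set 3). SLC2A3, a glucose transporter, and ENO2, an enolase, had the smallest p, at 0.69 and 0.49 (adjusted p = 0.177 and 0.225), and both lie in the run of higher genes on chromosome 12 described below, where the running medians around them were 0.27 and 0.30. Of 68 oxidative phosphorylation subunits 52 were lower (median -0.07, or -0.11 without PK25 set 1 and -0.04 without V22 set 6) and none was called.

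**Figure D3:**
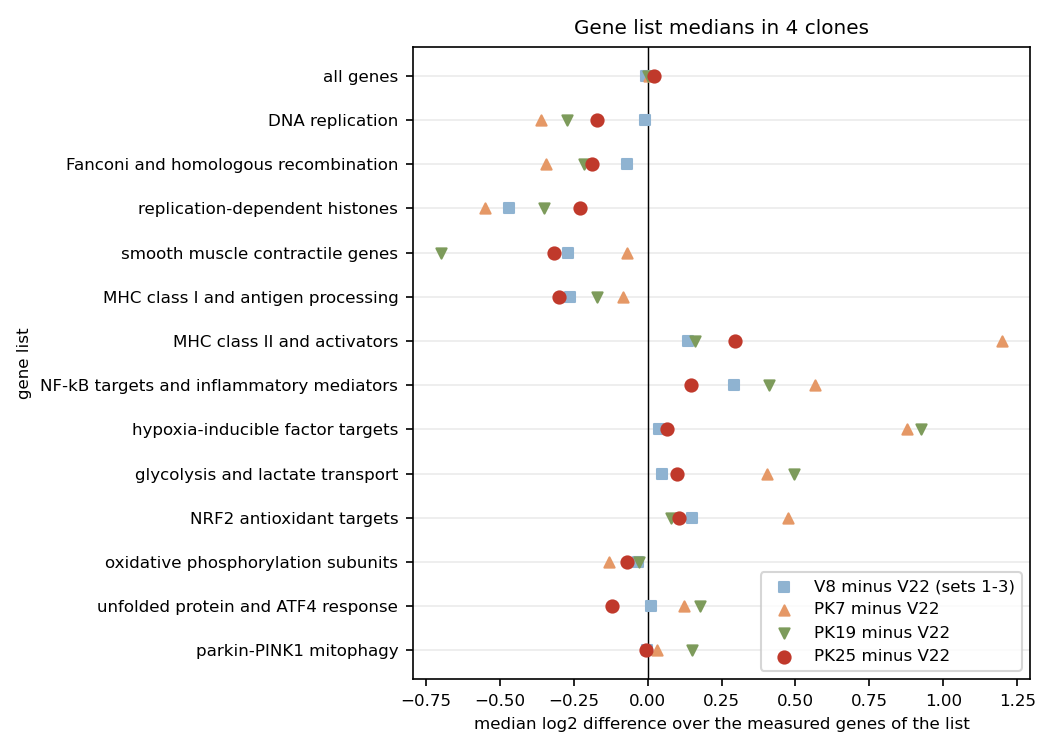
Median log2 difference (x axis) over the measured genes of 13 lists and over all genes, for PK25, PK7 and PK19 against V22 sets 4 to 6 and for V8 against V22 sets 1 to 3. PK25 lies near 0 for hypoxia-inducible factor targets, where PK7 and PK19 lie at 0.88 and 0.92, and below 0 for replication, repair, histone and contractile genes.

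Inflammatory genes had a median shift of 0.15 over 33 NF-kB targets and inflammatory mediators, 11 of them apart and higher (8.63% of all genes) and none called. The same list had a median of 0.56 in PK7 and 0.41 in PK19, and 0.29 in V8 against V22 sets 1 to 3. IL1B, the cytokine interleukin 1 beta, lay at 9.21, 10.68 and 9.03 in PK25 and 7.30, 7.67 and 7.22 in V22. The clones did not overlap, and set 2 of PK25 and set 5 of V22 were the highest arrays of their clones (difference 2.24 ± 0.40, adjusted p = 0.0992). MMP3, stromelysin, differed by 1.77 ± 0.52 (adjusted p = 0.298), and TNFAIP2 by 0.62 (adjusted p = 0.0651). Complement component C3 differed by 1.13 ± 0.18 (adjusted p = 0.0704). In V8 the means of IL1B and C3 were 11.48 and 8.04, against 8.51 and 5.04 in V22 sets 1 to 3. The 9 MHC class II genes and activators were all higher, with a median of 0.30, and 8 of 10 genes for MHC class I and antigen processing were lower, with a median of -0.30, with none called in either list. The class II median was 1.20 in PK7, 0.16 in PK19 and 0.14 in V8 against V22 sets 1 to 3. For class I the medians of PK7, PK19 and V8 were -0.08, -0.17 and -0.26. HLA-DPA1 had a difference of 0.88 and NLRC5, the activator of class I genes, one of -0.42 (adjusted p = 0.261 and 0.203). NLRC5 lies in a run of lower genes on chromosome 16. Of 25 NRF2 antioxidant targets, only AKR1C3 and ABCC2 were called, and NQO1, another NRF2 target, lay at 11.04 and 11.05. NRF2 activity was not tested. In all, 47 of 60 gene lists had no called member, and 45 had a median between -0.1 and 0.1.

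A further 29 genes differed by 2-fold or more without passing the test, 10 higher and 19 lower in PK25. For 25 of them the arrays of the clones did not overlap, beside 8.63% of all genes apart and higher and 9.57% apart and lower. The 29 were selected by their difference on these same arrays, so that count is a description. The following were picked after their values were seen, for their size. SLC7A8, an amino acid transporter, lay at 7.64, 9.25 and 7.80 in PK25 and 10.21, 10.51 and 10.22 in V22 (difference -2.08, adjusted p = 0.115). LRFN5, a synaptic adhesion molecule, lay at 5.57, 6.88 and 6.26 and 7.98, 8.69 and 8.18 (-2.05, adjusted p = 0.0704). In both, PK25 set 2 was the array nearest to V22. ITGA10, a collagen-binding integrin chain, differed by -1.48 and CMTM7 by 1.56 (adjusted p = 0.0523 and 0.0638). SLC1A3, the astrocyte glutamate transporter, differed by -1.12 (adjusted p = 0.0714), the largest difference among the 14 astroglial markers.

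Part of the difference between the clones was arranged along chromosomes. The 8670 genes that averaged above 7 in log2 intensity and have a known position were put in RefSeq order, and the median difference was taken over 51 neighbouring genes around each. The running median passed 0.25 in either direction in 8 runs of at least 25 genes, 1 higher and 7 lower, holding 493 genes. In these runs 338 genes had arrays that did not overlap between the clones, against 1719 of the 8177 genes outside them. Runs were chosen by these same differences, so this share is a description. Of the 24 called genes above the same level, 6 lay in a run.

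The run of higher genes extended over 100 genes on chromosome 12, from IQSEC3 to TMTC1, with a median of 0.31 and 96 genes higher. It holds the called genes CD9 and TMTC1. The same genes had medians of 0.33 in PK7, 0.28 in PK19 and 0.63 in V8, and 0.03 in V17 against V22. On chromosome 16, PK25 had a pair of runs of lower genes, VPS35 to CIAPIN1 (42 genes, median -0.38, with MMP2 among them) and CENPT to COTL1 (76 genes, median -0.30). In PK7 their medians were 0.24 and 0.17, in PK19 0.06 and -0.08, and in V8 0.09 and 0.04, none of them below -0.1. The run from HTT to PDS5A on chromosome 4 (59 genes, median -0.30) holds UBE2K, with medians of -0.21 in PK7, -0.04 in PK19 and 0.01 in V8. The run from ATP6V1F to ABCF2 on chromosome 7 (69 genes, median -0.28) holds PLXNA4 and DENND11, with medians of -0.31 in PK7, -0.17 in PK19 and -0.15 in V8.

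The remaining runs of lower genes were SDR39U1 to MAPK1IP1L on chromosome 14 (63 genes, median -0.31 in PK25), TMTC4 to CHAMP1 on chromosome 13 (28 genes, -0.26 in PK25) and DESI1 to SCO2 on chromosome 22 (56 genes, -0.26 in PK25). In PK7, PK19 and V8 the medians of the chromosome 14 run were -0.31, -0.85 and -0.13, those of the chromosome 13 run -0.06, 0.08 and -0.74, and those of the chromosome 22 run -0.49, -0.01 and -0.20. Over all 211 of its genes above the same level, chromosome 22 had a median of -0.25 in PK25, so the ends of its run depend on the 0.25 limit. Chromosomes 14, 21, 5 and 7 had whole-chromosome medians of -0.20, -0.18, -0.17 and -0.15 in PK25. By array, the median of the chromosome 16 run with MMP2 was -0.31, -0.30 and -0.49 in PK25, and V22 arrays differed from each other by -0.05 to 0.04 there. Without PK25 set 3, the array that stood apart, the medians of the 7 lower runs lay between -0.28 and -0.20, and that of the chromosome 12 run was 0.35. Whether DNA copy number differs between the clones was not tested.

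**Figure D4:**
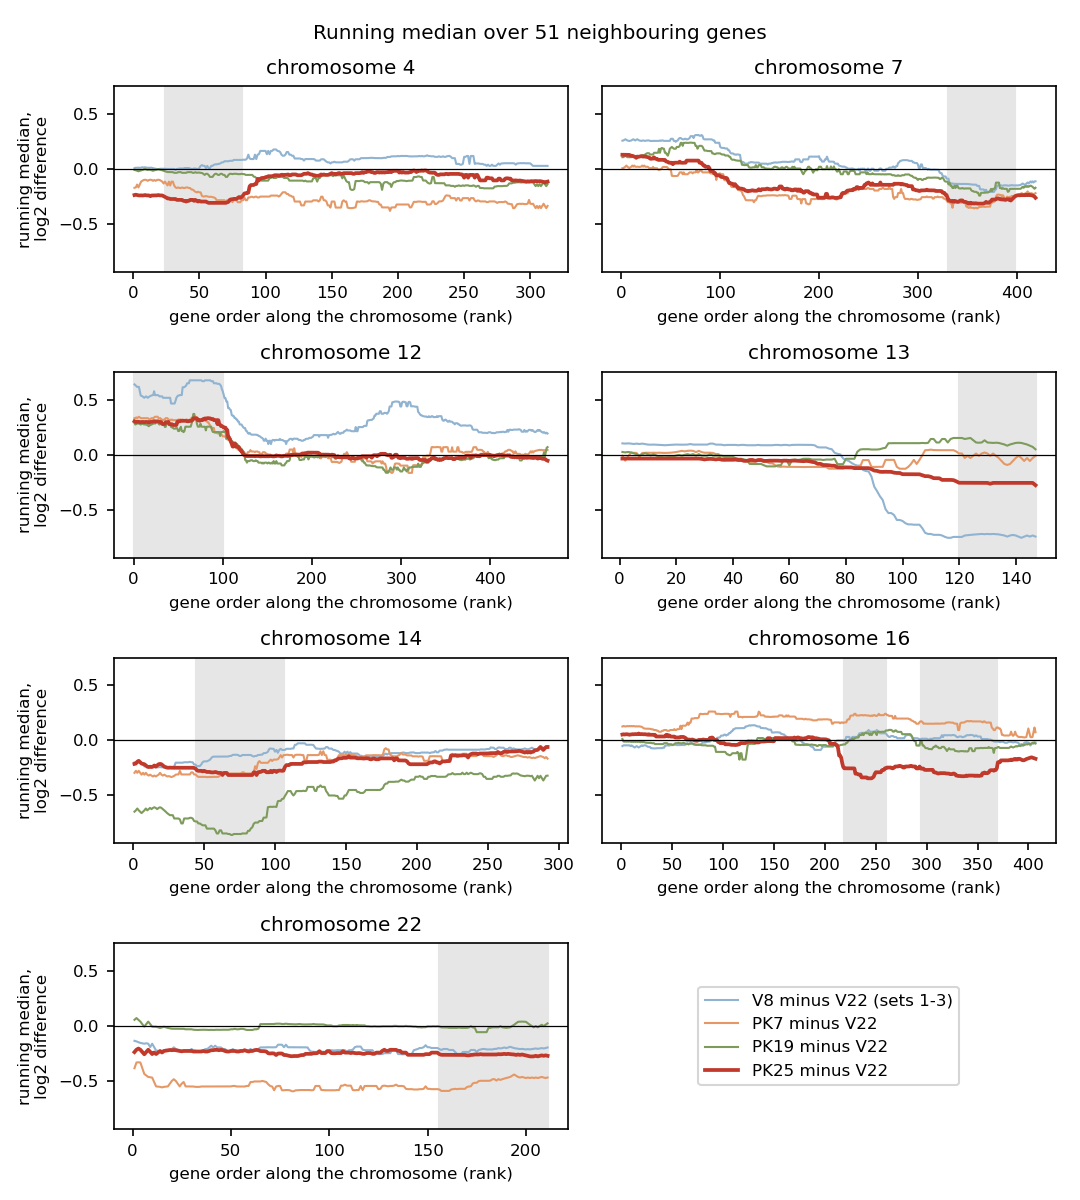
Running median log2 difference over 51 neighbouring genes (y axis) against gene order (x axis) on the 7 chromosomes with a run, with runs of PK25 shaded. PK25 shares the raised start of chromosome 12 with PK7, PK19 and V8, and lies below 0 over the end of chromosome 16 where PK7 lies above 0.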

How the data were processed

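RMA intensity of 26947 probe sets on Affymetrix whole-transcript arrays was deposited by the authors on a linear scale, with RMA named without a version per the submitters' processing notes, and was turned into log2 values here. RMA summarises probes after background correction and quantile normalization, which compresses dim signals. The symbol table lists 1 symbol for 19305 probe sets, several for 1750 and none for 5892, and each of 18374 genes is represented by its brightest probe set with 1 symbol over the 21 arrays. Chromosomes and gene order follow RefSeq (GRCh38.p14).

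PK25 and V22 arrays were compared with limma 3.58.1 (lmFit, eBayes) in R 4.3.3, without filter or covariates, on all probe sets, and called means a Benjamini-Hochberg adjusted p under 0.05. The script was tested on simulated data. Arrays have no counted depth, and their number limits the precision.

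Genes named were up to 20 called rises and 20 called falls of at least 2-fold with arrays apart, up to 4 called members of each list (or the 2 with the smallest p), CCND1, CCNE1, KDR, VEGFA and FBXW7, and the first and last gene of each run, other names being given as picked later or as further members of a list. Comparison, lists and rules were chosen with earlier results of these data known, so they are no independent evidence. Lists were described by counts and medians without a test. Alternatives were normalization, dim probe sets, variance model, vector arrays, left-out arrays, neighbouring genes, probe set and offset.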

Additional observations from a re-analysis of the deposited data

Results flagged for a closer look

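In 15 of the 46 genes called between PK25 and V22, PK25 also differed from the mean of PK7 and PK19 by at least 2-fold in a direct contrast over the 9 parkin arrays (limma, adjusted p under 0.05 over all probe sets), so the effects of parkin clones against V22 were not alike there. PK25 was higher by 2.46 in MMP1, 1.16 in PAPSS2, 1.08 in CD9 and 1.44 in PLXNA4 on the log2 scale. It was lower in the other 11, with differences of -2.19 in SERPINB7, -1.99 in KIF5C, -1.97 in TLE4, -1.71 in NCAM2, -1.59 in LRCH2 and -1.42 in CYFIP2. The remaining differences were -1.30 in SESN3, -1.26 in DGKI, -1.25 in MMP2, -1.22 in FARP1 and -1.09 in LY6E. Standard errors were between 0.09 and 0.24 and adjusted p between 1.01e-05 and 0.00135. These contrasts share the PK25 arrays with the calls.

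The means of PLXNA4 and FARP1 were below V22 in all 3 parkin clones, with PLXNA4 lowest in PK7 (6.17) and PK19 (6.16) and FARP1 lowest in PK25 (6.59, against 7.74 in PK7, 7.87 in PK19 and 7.94 in V22). SERPINB7 was higher than V22 (5.74) in all 3, with the smallest rise in PK25 (mean 7.17, against 8.79 in PK7 and 9.94 in PK19). The means of MMP2, TLE4, KIF5C, LY6E, SESN3 and DGKI were below V22 in PK25 and above V22 in both other clones. NCAM2 and LRCH2 were low in PK25 and PK7 and not in PK19, where LRCH2 averaged 7.27 against 5.76 in V22. CYFIP2 averaged 5.96 in PK25, 6.44 in PK7, 8.33 in PK19 and 7.13 in V22. MMP1 averaged 8.90 in PK25, 5.95 in PK7 and 6.93 in PK19, with V22 between PK7 and PK19. The mean of CD9 was 10.66 in PK25, 9.28 in PK7, 9.89 in PK19 and 9.57 in V22. For PAPSS2 the means were 9.19 in PK25, 8.66 in PK7, 7.42 in PK19 and 8.02 in V22.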

How the results depend on the processing

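PK25 and V22 are 1 clone each and 3 arrays each, so a difference between clones cannot be told apart from one due to parkin, and dim genes such as NCAM2 and IL13RA2 are dim in 1 clone, so their folds depend on the treatment of low signal. The number of calls moved with most choices, while all 46 genes kept their sign in the fits without 1 array. Leaving out 1 array gave 1 to 9 higher and 2 to 36 lower genes at 2-fold, where 10 and 16 were reported, and 1 to 18 higher and 2 to 55 lower genes without the fold, where 16 and 30 were reported. For the contrast of PK25 with PK7 and PK19, leaving out 1 PK25 array gave 347 to 398 genes beside 363, and no PK7 or PK19 array was left out.

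Counts at 2-fold, higher and lower, were 16 and 25 with the spread taken from all 12 arrays of the series, 26 and 40 against V22 sets 1 to 3, 22 and 36 against all 6 V22 arrays, and 48 and 99 against V8 moved to the series. They were 5 and 8 with an offset of 32 and 1 and 1 without PK25 set 2 and V22 set 5, and 6 higher with the running median of neighbours subtracted. Without the fold they were 31 and 58 with the dimmest 30% left out, 44 and 84 with a trended and robust variance, 50 and 96 with 12 arrays, 65 and 127 against V22 sets 1 to 3, 151 and 370 against all 6, 35 and 79 against V8 and V17, 188 and 254 against V8, and 1 and 1 without PK25 set 2 and V22 set 5. Of the 46 genes, 46 were still called with a trended and robust variance, 41 against V22 sets 1 to 3, 15 against V8 and V17 and 21 against V8 in either direction. The cause of these changes was not tested. Runs numbered 5 among genes with a mean above 8.

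Against V8 moved to the series, the difference changed sign in 32 named genes, called or not: ACTG2 (0.34), AIFM2 (-0.84), AKR1C2 (-0.0381), C3 (-1.87), CCND1 (0.0899), CCNE1 (0.0164), CD9 (-0.92), CHL1 (0.17), CYP2J2 (0.34), DNM1L (-0.29), ENO2 (-0.52), FARP1 (0.0169), FERMT1 (-0.40), IL13RA2 (-0.58), IL1B (-0.73), LRFN5 (0.17), LSAMP (1.13), MANSC1 (-0.78), MMP3 (-1.18), MYLK (0.59), NRP1 (-0.28), OPTN (-0.43), PLXNA4 (0.93), PTPRR (0.0624), RENBP (0.89), SDC3 (0.0303), SERPINB7 (-0.43), SLC1A3 (0.16), SLC2A3 (-0.58), SMTN (0.0471), TAGLN (0.28), VEGFA (0.0119). Against V8 and V17 together it did so in AIFM2 (-0.0596), C3 (-0.41), ENO2 (-0.023), MYLK (0.15), PLXNA4 (0.0234), RENBP (0.11). In fits without 1 array the difference spanned 0 in DES (-0.0396 to 0.15), FBXW7 (-0.28 to 0.09), MYL9 (-0.0936 to 0.0272). No other named gene or setting reversed, and the settings chosen after the data were seen were V8 alone and the pair of left-out arrays.

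PK25 and V22 share no set number, since sets 1 to 3 face sets 4 to 6. No label pairs their arrays, and no paired analysis of PK25 and V22 was run. The correlations that follow are between deviations, each array minus the mean of its own clone at every probe set, not between whole arrays. Between PK7 and PK19, deviations of arrays sharing a set number correlated at 0.151 to 0.323. Between PK25 and either of them, the range was -0.0917 to 0.381. By this measure PK7 set 1 was closer to PK19 set 3 (0.204) than to PK19 set 1 (0.151). Deviations of set 2 arrays correlated at 0.323 between PK7 and PK19, 0.381 between PK19 and PK25 and 0.145 between PK7 and PK25. For PK25 set 3 the values with set 3 of PK7 and PK19 were -0.0917 and -0.00217. The set numbers therefore did not pair the arrays throughout, either between PK7 and PK19 or with PK25. The set number as a replicate block gave 374 genes in place of 363.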

Other observations

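Stress and lipid genes not described above differed little. Of 26 genes of the unfolded protein and ATF4 response 17 were lower in PK25 (median -0.12), with the serine synthesis enzyme PSAT1 at -0.65 (adjusted p = 0.174). In cholesterol synthesis 14 of 18 genes were lower (median -0.09, but -0.0079 without PK25 set 3, -0.17 without PK25 set 2 and -0.16 and -0.06 without V22 set 5 or 4), among them the master regulator SREBF2 (-0.66, adjusted p = 0.147). SREBF2 lies on chromosome 22, where the running median around it was -0.26. The lysosomal proteases CTSD and CTSC were 0.64 and 0.55 higher (adjusted p = 0.135 and 0.156), while the 41 genes for lysosome and autophagy had a median of 0.03 (-0.03 without PK25 set 2). None of these genes passed the test.

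Small nucleolar RNAs, a list added after the data were seen, were lower in 128 of 175 cases with a median of -0.12, and for 11 all PK25 arrays lay below all V22 arrays, beside 9.57% of all genes. Leaving out PK25 set 3 turned the median to 0.0285, and it was -0.23 without PK25 set 2, -0.19 without PK25 set 1 and -0.0718 without V22 set 5. Their median by array was 5.81, 6.00 and 5.24 on PK25 sets 1 to 3 and 5.88, 6.18 and 5.76 on V22 sets 4 to 6, so set 3 of PK25 was the lowest. The 6 measured members of the SNORD113 and SNORD114 cluster were all lower (median -1.05), 1 of them with arrays apart. Their median was -0.62 without V22 set 5, -0.68 without PK25 set 3 and -1.47 without PK25 set 2. The same 6 had a median of -2.03 in V8 against V22 sets 1 to 3.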
